A study of Mus musculus with 6 samples.

Results

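The miR-15/16 family is a group of microRNAs (miRNAs, short RNAs that guide Argonaute proteins to messenger RNAs) that restrain the cell cycle. Its members were chosen by name in the deposited miRNA table: 6 guide strands (the 5p arms of miR-15a, miR-15b, miR-16, miR-195a, miR-497a and miR-322) and 4 passenger strands (miR-15a-3p, miR-15b-3p, miR-16-1-3p and miR-16-2-3p). All 10 were present among the 1626 miRNAs listed. The mice were C57BL/6J and the tissue was fetal liver, with 3 libraries of wild-type genotype (WT, numbered 1 to 3) and 3 of embryos homozygous for loss of miR-144/451 (miR-144/451-/-, here KO, numbered 4 to 6). That locus gives rise to abundant erythroid miRNAs, and both groups shared the strain and the tissue. The embryonic day is not in the labels. Each library was made from total RNA of 5000000 cells, and nothing in the labels ties the replicates to separate embryos. What the p-values measure is therefore the spread from library to library, which may be technical.

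Guides of this family pair through a shared seed (bases 2 to 8) with transcripts of cyclins, cyclin-dependent kinases and checkpoint kinases, and so slow the entry of cells into S phase. They also repress Bcl2, which blocks cell death, and miR-15a with miR-16 represses Myb, a transcription factor of blood progenitors. In blood, miR-15a and miR-16-1 are known as tumour suppressors lost in chronic lymphocytic leukaemia, and fetal liver is a tissue where red cell precursors divide rapidly. The opposite, passenger arm of each hairpin is mostly degraded.

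The mature sequences show what the 6 guides share and where they part. They are from RefSeq (GRCm38.p6), written 5′ to 3′ with the seed in capitals. They are shown because the seed defines the family while the remaining bases differ between guides. How reads matching several miRNAs were counted is not given, so the counts of near-identical miRNAs may not be separate.
mmu-miR-16-5p: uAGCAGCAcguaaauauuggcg
mmu-miR-15a-5p: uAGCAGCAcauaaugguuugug
mmu-miR-15b-5p: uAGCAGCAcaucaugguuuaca
mmu-miR-195a-5p: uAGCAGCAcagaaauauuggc
mmu-miR-497a-5p: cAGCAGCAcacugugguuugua
mmu-miR-322-5p: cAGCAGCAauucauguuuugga
All 10 members matched a RefSeq entry, and all 6 guides held the same 7-base seed. Aligned from base 1 without gaps, miR-195a-5p differed from miR-16-5p by 2 substitutions over 21 positions (G10A and U11G, the base of miR-16-5p first). miR-15a-5p and miR-15b-5p differed from each other by 4 (A12C, G20A, U21C and G22A). miR-322-5p and miR-497a-5p, which start with c, differed from miR-16-5p at 10 and 11 of 22 positions.

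The passenger arms carry other seeds, which are again in capitals. They are shown because those of the 2 miR-16 hairpins differ in sequence, while the guide miR-16-5p is identical.
mmu-miR-16-1-3p: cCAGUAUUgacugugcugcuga
mmu-miR-16-2-3p: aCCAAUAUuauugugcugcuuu
mmu-miR-15a-3p: cAGGCCAUacugugcugccuca
mmu-miR-15b-3p: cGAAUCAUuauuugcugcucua
None of these 4 passengers had AGCAGC at bases 2 to 7. miR-16-1-3p and miR-16-2-3p differed from each other at 10 of 22 positions.

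The guides come from 4 genomic clusters, given here in GRCm38 with GENCODE M21 annotation. Mir15b (chr3:69009772-69009835) and Mir16-2 (chr3:69009902-69009996) lie 66 bases apart on the plus strand inside introns of Smc4, which encodes a condensin subunit. Mir15a (chr14:61632027-61632110) and Mir16-1 (chr14:61631880-61631972) lie 54 bases apart on the minus strand within Dleu2, a long non-coding RNA gene. There Mir15a is intronic and Mir16-1 overlaps an annotated exon. Mir497 (chr11:70234717-70234800) and Mir195a (chr11:70235042-70235135) lie 241 bases apart on the plus strand, with no annotated host gene, and Mir195a is 7.84 Mb from the deleted Mir144 on the same chromosome. Mir322 (chrX:53054255-53054349), the mouse counterpart of human miR-424, lies 200 bases from Mir503 on the minus strand, also without an annotated host gene. The hairpins of Mir16-1 and Mir16-2 are printed with both arms in capitals to show that the 5p arm is identical and the 3p arm is not.
Mir16-1: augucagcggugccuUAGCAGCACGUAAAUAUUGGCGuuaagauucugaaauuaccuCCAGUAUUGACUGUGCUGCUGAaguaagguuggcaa
Mir16-2: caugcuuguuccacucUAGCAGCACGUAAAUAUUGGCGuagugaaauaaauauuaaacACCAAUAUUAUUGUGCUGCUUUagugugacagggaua

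Library depth was 16243894 to 27089133 miRNA counts. miR-451a took 20.49%, 13.62% and 17.01% of counts in WT libraries 1 to 3 and 0.01944%, 0.01743% and 0.01932% in KO libraries 4 to 6, so all 6 libraries matched their genotype labels. Sums of cell type marker miRNAs differed between libraries of the same genotype. The summed level of 5 hepatocyte miRNAs ranged from 34270.3 to 133076 counts-per-million units (CPM) in WT, highest in library 3, and from 42683 to 103310 CPM in KO, highest in library 6. Both miR-486a arms, erythroid miRNAs from outside the deleted locus, summed to 44000 to 82756 CPM in WT, lowest in library 3, and 49878 to 69926 CPM in KO, lowest in library 6. Myeloid miR-223 products summed to 15699 to 20736 CPM in WT and 8882.6 to 16311 CPM in KO, endothelial miR-126a products to 7322.6 to 10523 and 7734.2 to 11046 CPM, and 8 mesenchymal and muscle miRNAs to 2306.2 to 3170.9 and 2135.3 to 2992.4 CPM. Within the last list 3 muscle miRNAs stood apart in WT library 1 and, less so, in KO library 4: miR-206-3p held 204, 10.9 and 7.66 CPM in WT and 41.8, 7.35 and 6.97 CPM in KO, and miR-1a-3p and miR-133a-3p had the same pattern. None of these markers was at 0 in any library. In whole tissue, fewer cells of a type and less RNA per cell cannot be told apart.

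Levels are CPM after scaling by the trimmed mean of M-values (TMM), which aligns libraries on the typical miRNA. The guides are nearly equal in length (21 or 22 bases), so CPM can be set side by side without a length correction. Counts of different miRNAs also carry how well each sequence is captured in the library.

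miR-16-5p, the leading guide of the family, held 100656, 123958 and 87878 CPM in WT libraries 1 to 3. It held 98910, 108551 and 98702 CPM in KO libraries 4 to 6. The KO values lay within the WT range, and both the highest and the lowest library were WT. By its mean share of counts miR-16-5p ranked 2 of all miRNAs in WT, behind miR-451a, and 1 in KO.

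miR-15b-5p, the partner of miR-16-2, held 11799, 14386 and 8558.9 CPM in WT and 10162, 13019 and 10119 CPM in KO. miR-15a-5p, the partner of miR-16-1, held 5619.4, 5384.6 and 4152.3 CPM in WT and 4305.3, 4915.5 and 3821.3 CPM in KO. Both guides overlapped between the genotypes, and both were lowest among WT libraries in library 3, the one with the most hepatocyte miRNA. Among KO libraries both were lowest in library 6, again the one with the most hepatocyte miRNA. The part of hepatocyte RNA in these differences was not tested.

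miR-322-5p, which promotes exit from the cycle during differentiation of muscle and other cells, held 1658.7, 2178.9 and 1564.2 CPM in WT. Its KO values were 1421.0, 2346.1 and 1465.2 CPM, so KO library 5 was the highest of all 6 and the other KO libraries were the lowest. miR-195a-5p, a miRNA known for arresting cardiomyocyte division, held 196, 238 and 202 CPM in WT and 159.8, 188 and 167 CPM in KO. It was the only one of the 10 members whose 3 KO values lay below all 3 WT values, a pattern seen in 5.94% of all 876 tested miRNAs. miR-497a-5p, encoded beside miR-195a, was the scarcest member. It held 9.62, 10.025 and 7.36 CPM in WT and 8.07, 9.06 and 6.51 CPM in KO. These rest on 147 to 242 counts per library, against 1755491 to 2992406 for miR-16-5p.

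Among the passengers, miR-15b-3p was the most abundant. It held 631, 516 and 603 CPM in WT and 519, 978 and 640.3 CPM in KO. KO library 5 stood apart from the other 5 libraries. miR-16-2-3p held 176, 253 and 204 CPM in WT and 158, 198 and 146 CPM in KO. miR-16-1-3p held 99.6, 133 and 121 CPM in WT and 73.9, 132 and 80.6 CPM in KO. miR-15a-3p held 28.4, 30.5 and 32.3 CPM in WT and 30.4, 36.8 and 25.9 CPM in KO. All 4 passengers overlapped between the genotypes, and in each of them KO library 5 was the highest KO library.

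**Figure D1:**
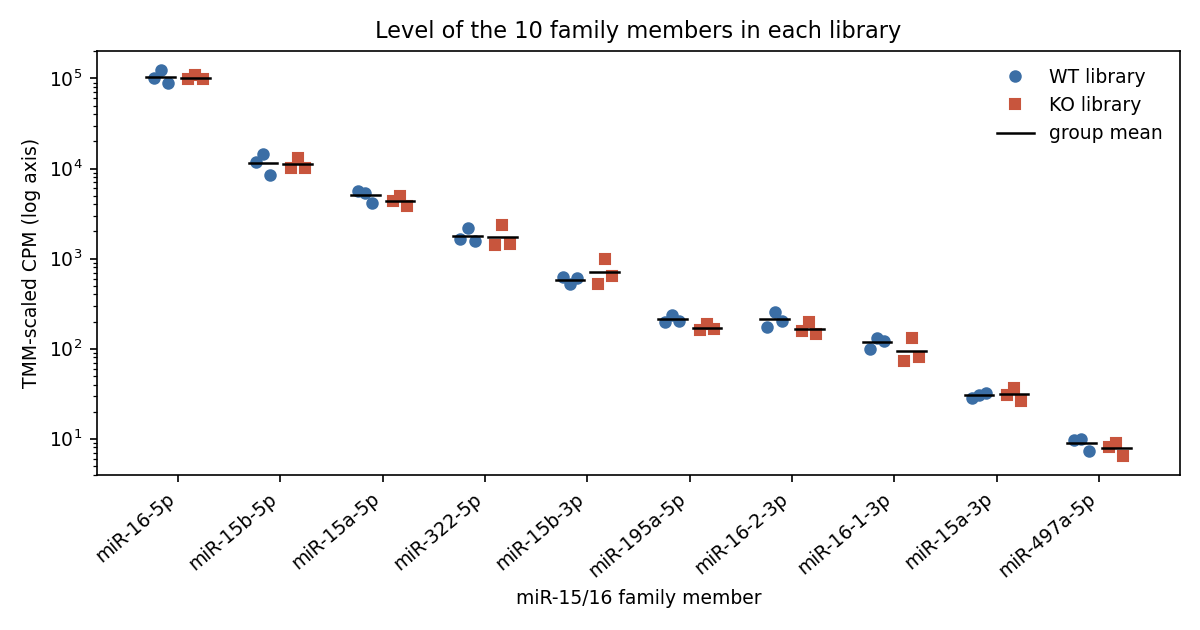
TMM-scaled CPM (log axis) of the 10 family members, ordered by mean level; circles are the 3 WT libraries, squares the 3 KO libraries and black lines group means. Levels run from about 103109 CPM for miR-16-5p to 8.44 CPM for miR-497a-5p, and WT and KO points overlap for every member except miR-195a-5p.

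The order of the levels was steep. By the means over all 6 libraries, miR-16-5p stood 9.09 times above miR-15b-5p, miR-15b-5p 2.41 times above miR-15a-5p and miR-15a-5p 2.65 times above miR-322-5p. miR-15b-3p, a passenger, came next, 2.74 times below miR-322-5p and 3.38 times above miR-195a-5p. Each of these steps kept its direction in 6 of 6 libraries, with no overlap in range. miR-195a-5p and miR-16-2-3p, at mean levels of 192 and 189 CPM, could not be ordered: miR-195a-5p was the higher in 3 of 6 libraries. miR-16-1-3p, miR-15a-3p and miR-497a-5p followed, each below its neighbour in 6 of 6 libraries and separated by 1.77, 3.47 and 3.64 times. Spread over the 6 libraries, as the SD in percent of the mean, was smallest for miR-16-5p (11.8%) and miR-15a-3p (11.96%) and largest for miR-15b-3p (26.3%) and miR-16-1-3p (24.2%).

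The comparison of KO with WT asks whether loss of the miR-144/451 locus is accompanied by other levels of this family. None of the 10 members passed the test (edgeR's quasi-likelihood test, Benjamini-Hochberg adjusted p under 0.05 over all 876 tested miRNAs), where 0.799% of all tested miRNAs were called in either direction. At an unadjusted p under 0.05 the count was also 0 of 10, by edgeR, by DESeq2 and by limma-voom, where edgeR gave 84 higher and 15 lower of all 876 tested. All 10 members passed the filter on low counts. The mean of miR-16-5p was 104164 ± 18294 CPM for WT against 102054 ± 5627.4 CPM for KO (SD, n = 3 each), so the difference of the means was smaller than the SD in either group. Its KO level was 0.98 times that in WT, with a 95% interval of 0.782 to 1.23. The interval gives the folds that remain compatible with these libraries. The smallest difference they could have detected was not computed. The test was unpaired, because the labels give no pairing of WT with KO libraries.

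The 6 guides summed to a single count gave 120099, 146246 and 102311 CPM in WT and 115041, 129305 and 113797 CPM in KO. Their means were 122885 ± 22100 CPM and 119381 ± 8616.9 CPM (SD, n = 3 each), and the groups overlapped. The log2 fold was -0.04 (SE 0.14, 95% interval -0.38 to 0.30; edgeR Benjamini-Hochberg adjusted p = 0.977). Without WT library 2, which had the most miR-16-5p, the log2 fold was 0.10, and without WT library 3, which had the least, it was -0.21.

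Among single guides the log2 fold was -0.06 for miR-15b-5p (95% interval -0.56 to 0.44) and -0.22 for miR-15a-5p (-0.61 to 0.18). It was -0.05 for miR-322-5p (-0.63 to 0.53) and -0.19 for miR-497a-5p (-0.73 to 0.34). Without WT library 3, miR-15a-5p stood at -0.41 (edgeR Benjamini-Hochberg adjusted p = 0.411), miR-497a-5p at -0.38 and miR-15b-5p at -0.30. Without WT library 1 miR-15a-5p stood at -0.13, and without KO library 6 miR-497a-5p stood at -0.089. The mean of miR-195a-5p was 212 ± 22.7 CPM for WT against 172 ± 14.9 CPM for KO (SD, n = 3 each). Its log2 fold was -0.30 (SE 0.17, 95% interval -0.71 to 0.10; edgeR Benjamini-Hochberg adjusted p = 0.564). The edgeR adjusted p of all 10 members lay between 0.564 and 0.999. Every guide had a fold below 0 with TMM scaling, and all 6 intervals spanned 0. With no scaling factor all 6 were above 0, but there the median over all miRNAs outside the locus was 0.34. Upper-quartile scaling, with a median of 0.09, put miR-15b-5p, miR-16-5p and miR-322-5p above 0. Relative to these medians 2 members were above and 8 below, the same counts as with TMM.

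The passengers ranged from a log2 fold of -0.33 for miR-16-2-3p (95% interval -0.84 to 0.17) to 0.29 for miR-15b-3p (-0.31 to 0.89). miR-16-1-3p stood at -0.31 (-0.95 to 0.34) and miR-15a-3p at 0.03 (-0.45 to 0.51). The positive value of miR-15b-3p rested on 1 library: without KO library 5 its log2 fold was -0.04. Without the same library miR-16-1-3p stood at -0.63 (edgeR Benjamini-Hochberg adjusted p = 0.526). Over the 10 members the median log2 fold was -0.13, with 2 above 0 and 8 below, beside a median of -0.01 over all tested miRNAs, with 416 above 0 and 460 below. The split of members above and below the typical miRNA was 2 and 8 with all libraries and the filter used here. With a mean of at least 10 CPM required, which left out miR-497a-5p, it was 4 and 5. Leaving out WT library 2 made it 5 and 5, and leaving out WT library 3 made it 1 and 9. Leaving out KO library 6 made it 6 and 4, and leaving out KO library 5 made it 0 and 10.

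**Figure D2:**
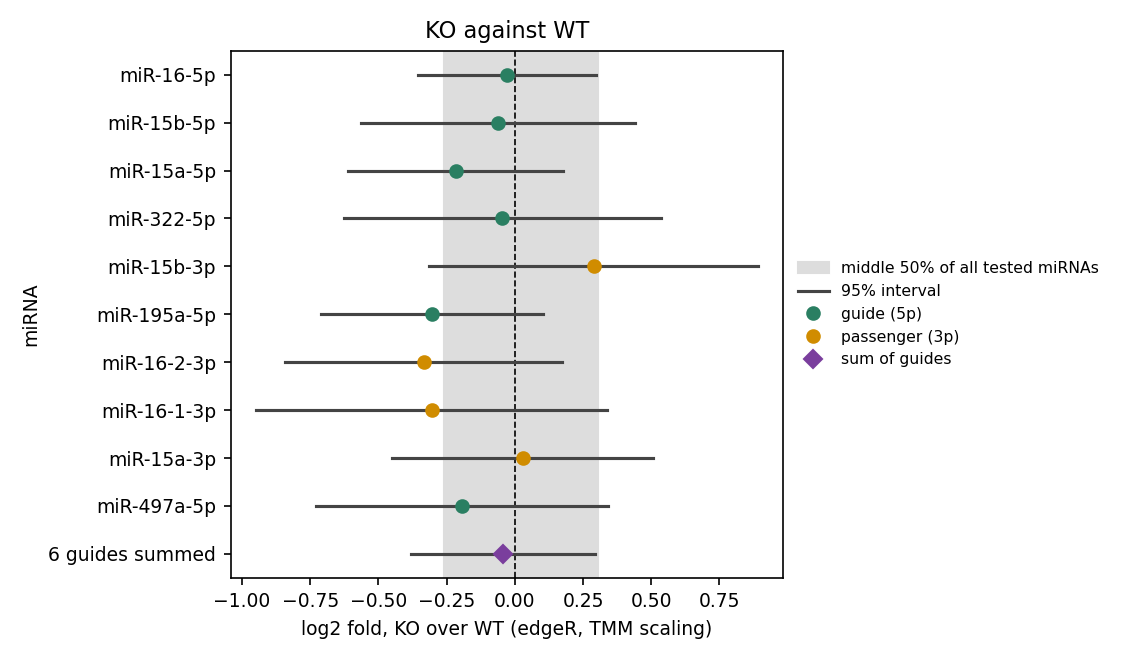
Log2 fold of KO over WT (edgeR, points) with 95% intervals (lines) for the 10 members and for the sum of the 6 guides; the grey band spans the quartiles of all tested miRNAs, from -0.26 to 0.30. All 11 intervals cross 0, and the sum of the guides stands at -0.04.

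The part of the whole library taken by the family depends on whether the deleted locus is counted. The 6 guides took 10.6%, 13.0% and 8.95% of all miRNA counts in WT and 14.04%, 14.2% and 12.4% in KO. The means were 10.9% ± 2.05 and 13.5% ± 0.980 (SD, n = 3 each), and the exact two-sided permutation p was 0.2, where 3 against 3 libraries cannot go below 0.1. Of the counts outside the deleted locus they took 13.9%, 15.8% and 11.2% in WT and 14.04%, 14.2% and 12.4% in KO. On that base the means were 13.65% ± 2.31 and 13.54% ± 0.981 (SD, n = 3 each; exact two-sided permutation p = 1). Depth put little uncertainty on these shares: the Wilson 95% intervals were at most 0.034 percentage points wide. These widths reflect counting error alone: without molecular identifiers, reads cannot be taken as independent molecules.

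The 4 passengers together took 0.0825%, 0.0831% and 0.0839% of all counts in WT and 0.0954%, 0.148% and 0.0969% in KO (exact permutation p = 0.1, two-sided, which is the lowest value 3 against 3 libraries can give). Of the counts outside the deleted locus they took 0.109%, 0.101% and 0.105% in WT libraries and 0.0954%, 0.148% and 0.09696% in KO libraries. There the groups overlapped, with KO library 5 above every WT library and KO libraries 4 and 6 below every WT library. miR-15b-3p was the largest part of this sum, with 10297 to 17711 counts per library, against at most 6103 for any other passenger.

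Shares within the guide pool do not depend on library scaling, and they showed a family dominated by 1 member. miR-16-5p made up 83.9%, 84.8% and 85.9% of the 6 guides' counts in WT and 86.03%, 84.1% and 86.4% in KO, means of 84.9% ± 0.965 and 85.5% ± 1.21 (SD, n = 3 each). miR-15b-5p made up 9.35% ± 0.854 in WT and 9.26% ± 0.718 in KO, and miR-15a-5p 4.14% ± 0.506 and 3.63% ± 0.252 (SD, n = 3 each). miR-322-5p made up 1.47% ± 0.0754 and 1.45% ± 0.324, with KO library 5 at 1.82%. These 4 guides overlapped between the genotypes.

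miR-195a-5p made up 0.164%, 0.163% and 0.197% of the pool in WT and 0.139%, 0.146% and 0.146% in KO, and the groups did not overlap. Its exact permutation p, two-sided, was 0.1 (again the lowest value the design can give), and 0.6 after Benjamini-Hochberg adjustment over the 6 guides. miR-497a-5p stood at 0.00736% ± 0.000598 and 0.00658% ± 0.000761 (SD, n = 3 each). The exact permutation p of the other 5 guides lay between 0.3 and 1. Wilson 95% intervals of single-library shares were at most 0.0972 percentage points wide for miR-16-5p and 0.0122 for miR-195a-5p.

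**Figure D3:**
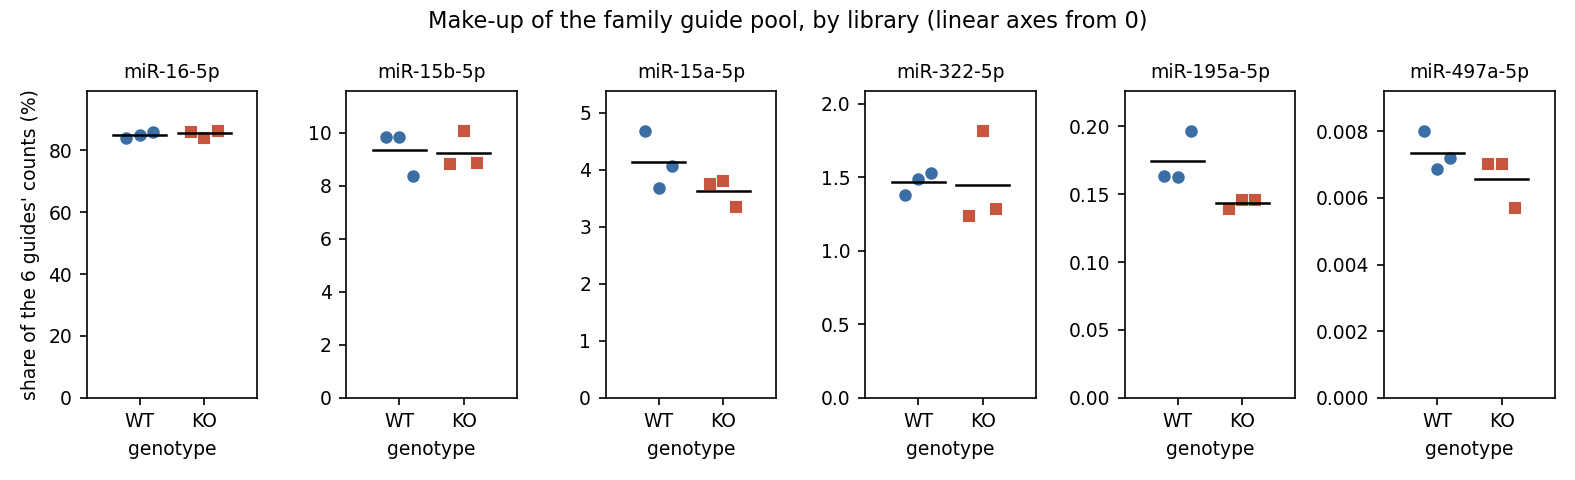
Share (percent, linear axes from 0) of the 6 guides' summed counts held by each guide; circles are WT libraries, squares KO libraries and black lines group means. miR-16-5p holds 83.9% to 86.4% in every library, and only miR-195a-5p has all KO points below all WT points.

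Whether the chromosome 3 or the chromosome 14 cluster supplies miR-16-5p cannot be read from that guide, so the cluster ratios were taken from arms that differ in sequence. miR-16-1-3p per miR-16-2-3p was 0.566, 0.526 and 0.593 in WT and 0.468, 0.666 and 0.551 in KO. The means were 0.562 ± 0.0340 and 0.562 ± 0.0994 (SD, n = 3 each). KO libraries gave both the lowest and the highest ratio. miR-15a-5p per miR-15b-5p was 0.476, 0.374 and 0.485 in WT and 0.424, 0.378 and 0.378 in KO. In both ratios the chromosome 3 product was the more abundant in every library. Such ratios also carry how much of each arm is kept and captured, so they do not give the source of miR-16-5p.

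For the passengers of the same clusters, miR-15a-3p per miR-15b-3p was 0.0526 ± 0.00712 in WT and 0.0455 ± 0.0113 in KO (SD, n = 3 each), and in every library it was below the ratio of their guides. miR-195a-5p per miR-497a-5p, encoded 241 bases apart, was 23.8 ± 3.50 in WT and 22.05 ± 3.09 in KO (SD, n = 3 each). Counts of miR-195a-5p were within 1.04% of those of miR-195b, encoded on chromosome 2, so this ratio may not be of neighbours alone. Exact permutation tests (two-sided) of the log2 ratios gave p = 0.9, 0.4, 0.3 and 0.6 in the order given, and 0.8 to 0.9 after Benjamini-Hochberg adjustment over these 4 ratios. All 4 overlapped between the genotypes.

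Guide counts exceeded passenger counts in every hairpin of the family, by amounts that differed widely between hairpins. miR-16-5p stood 366, 321 and 271 times above its 2 passengers combined in WT libraries and 427, 329.8 and 435 times in KO libraries. miR-15a-5p stood 198, 176 and 129 times above miR-15a-3p in WT and 142, 134 and 147 times in KO. miR-15b-5p, in contrast, stood 18.7, 27.9 and 14.2 times above miR-15b-3p in WT and 19.6, 13.3 and 15.8 times in KO, a range that did not overlap that of miR-15a. miR-322 was the most balanced, with 2.54 to 4.73 counts of 5p per count of 3p over the 6 libraries, and miR-195a had 96.6 to 200.5.

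None of these arm ratios passed the test of KO against WT (limma on log2 ratios, Benjamini-Hochberg adjusted p under 0.05), and 0% of all 264 hairpins were called. At an unadjusted p under 0.05 limma gave 14 of the 264 hairpins and none of these. The difference in log2 ratio was 0.32 for miR-16 (SE 0.22, 95% interval -0.18 to 0.81), -0.23 for miR-15a (SE 0.22, -0.73 to 0.28) and -0.28 for miR-15b (SE 0.29, -0.95 to 0.39). Their limma Benjamini-Hochberg adjusted p lay between 0.845 and 0.922. Single libraries moved these differences: miR-15b stood at -0.51 without WT library 3 and -0.024 without WT library 2, miR-15a at -0.41 without WT library 3 and -0.097 without WT library 1, and miR-16 at 0.20 without WT library 3. Among WT libraries, library 3 had the lowest ratio for miR-16, miR-15a, miR-15b, miR-195a, miR-322 and miR-503. It was also the WT library with the most hepatocyte miRNA. For miR-195a the gap was small, with 154.9 in library 3 and 156.1 in library 1. miR-497a, which was not in the test, was lowest in library 1 (19.6, against 24.5 in library 3). How many of all 264 hairpins were lowest in library 3 was not counted. KO library 6, the KO library with the most hepatocyte miRNA, had the lowest KO ratio for miR-195a, miR-322 and miR-503 but the highest for miR-16 and miR-15a. The part of hepatocyte RNA in these ratios was not tested.

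**Figure D4:**
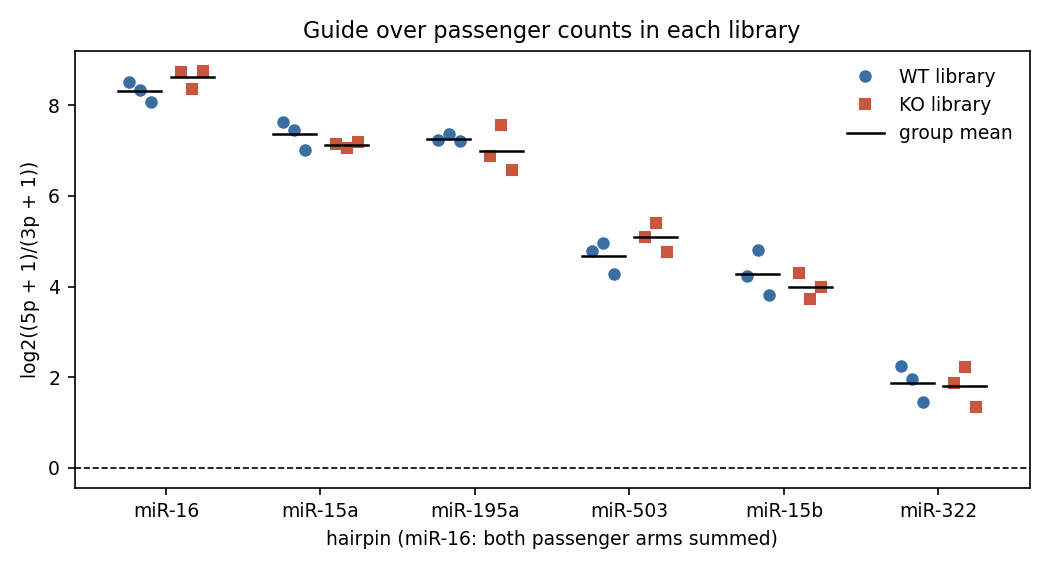
Log2 of 5p over 3p counts, with 1 added to each, for 6 hairpins of the family and its cluster; circles are WT libraries, squares KO libraries and black lines group means. miR-16 lies highest, at 8.08 to 8.77, and miR-322 lowest, at 1.35 to 2.24, with WT and KO points overlapping in all 6.

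RefSeq holds 11 mature mouse miRNA names with AGCAGC at bases 2 to 7, which is 0.655% of all its mature mouse names. Of these, 8 were in the deposited table, the 6 guides and 2 others.
mmu-miR-195b: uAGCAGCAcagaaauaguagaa
mmu-miR-503-5p: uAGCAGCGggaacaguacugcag
miR-195b is identical to miR-195a-5p over its first 16 bases (U17G, G19A and C21A follow, with the base of miR-195a-5p first). Its counts differed from those of miR-195a-5p by at most 1.04% in any library, so both were read as 1 signal, and miR-195b was left out of the pool. The levels, folds and shares given for miR-195a-5p are those of this joint signal. No other miRNA matched a member's counts within 5% in every library. miR-503-5p, which departs from the family seed at base 8, had a mean of 529.5 ± 51.8 CPM for WT against 606 ± 42.3 CPM for KO (SD, n = 3 each). Its log2 fold was 0.19 (95% interval -0.17 to 0.56). miR-103-3p and miR-107-3p hold the seed's core shifted by 1 base and also differed from each other by at most 0.151%. Both had a log2 fold of 0.46 (edgeR Benjamini-Hochberg adjusted p = 0.143). Of the 9 related miRNAs listed, 6 were in the table and 5 were tested. None was called by edgeR, and at an unadjusted edgeR p under 0.05 the miR-103-3p and miR-107-3p signal was higher, as were 84 of all 876 tested miRNAs. Of the other passenger arms of the family and of miR-503, 4 were present, 3 were tested and none was called. Their log2 folds were 0.01 for miR-195a-3p (95% interval -0.72 to 0.75), -0.02 for miR-322-3p (-0.62 to 0.58) and -0.23 for miR-503-3p (-0.76 to 0.31). miR-497a-3p, which was not tested, held 0.077 to 0.49 CPM.

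The cluster that holds miR-322 on chromosome X carries further miRNAs, and all 11 listed partner arms were tested. None was called, 4 were above 0 and 7 below, and the median log2 fold was -0.01. The most abundant were miR-351-5p at 0.07 (95% interval -0.37 to 0.51), miR-503-5p at 0.19 (-0.17 to 0.56) and miR-542-3p at 0.07 (-0.34 to 0.48).

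Lists of other miRNAs that act on proliferation were set beside the family. Of 19 other miRNAs known to restrain the cell cycle (let-7, miR-34, miR-449a, miR-26, miR-29 and miR-503 guides), 18 were tested and none was called, with 15 above 0, 3 below and a median log2 fold of 0.19. Their most abundant members, let-7a-5p, let-7c-5p and let-7i-5p, stood at 0.05, 0.05 and 0.21. In 9 of the 18, every KO library was higher than every WT library, a pattern of 15.9% of all tested miRNAs. The count for the family was 0 of 10, and whether it differs from that share was not tested. let-7a-5p with let-7c-5p and let-7g-5p with let-7i-5p had counts within 2.25% of each other, so the 18 are not separate signals. The lowest of the list, miR-449a-5p, named after its values were seen, stood at -1.43 (95% interval -2.09 to -0.77; edgeR Benjamini-Hochberg adjusted p = 0.106). The 3 that were higher at an unadjusted edgeR p under 0.05 are likewise named after their values were seen. They were let-7d-5p at 0.55 (95% interval 0.17 to 0.94), miR-98-5p at 0.53 (0.22 to 0.84) and miR-26b-5p at 0.27 (0.01 to 0.53).

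Of 13 miRNAs known to promote proliferation (miR-17-92 type guides, miR-221-3p and miR-222-3p), all were tested and none was called, with 3 above 0, 10 below and a median log2 fold of -0.09. Their most abundant members were miR-25-3p at -0.15, miR-93-5p at 0.10 and miR-92a-3p at -0.31. At an unadjusted edgeR p under 0.05, 3 of the restraining list were higher and 1 lower, and 0 of the promoting list and 0 of the cluster partners, beside 84 higher and 15 lower of all 876 tested.

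**Figure D5:**
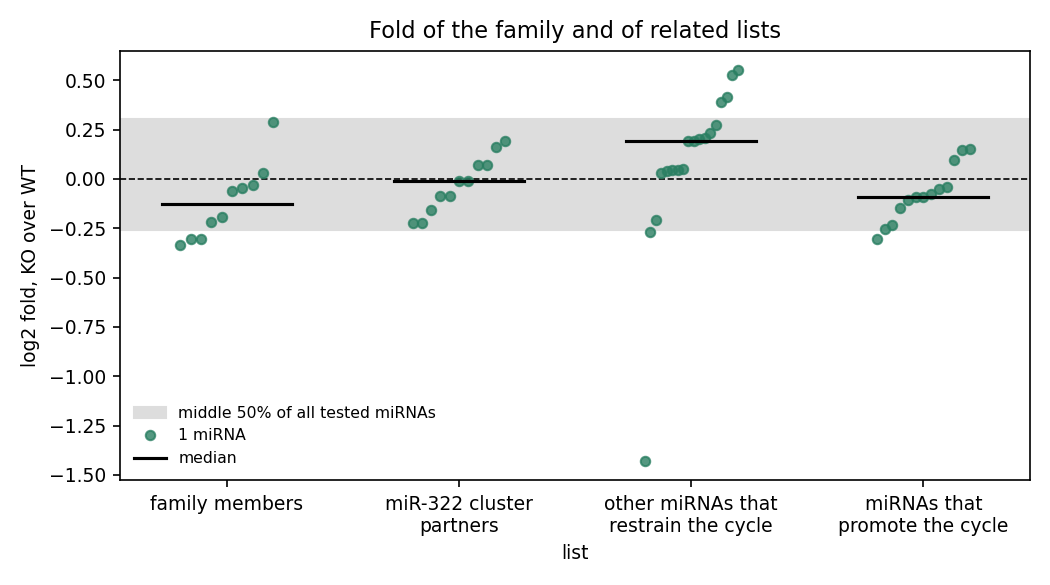
Log2 fold of KO over WT for each tested miRNA (points) of the family and of 3 lists, with list medians (black lines); the grey band spans the quartiles of all tested miRNAs. The family median is -0.13, and those of the lists are -0.01, 0.19 and -0.09.

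The miRNAs whose levels followed those of miR-16-5p most closely over the 6 libraries were looked up among 227 others with a mean of at least 100 CPM. By Pearson's r of log2 CPM they were miR-142a-5p (0.968), miR-3963 (0.919), miR-296-5p (0.882), miR-221-3p (0.876) and miR-106b-3p (0.863). These r are given as a description over 6 libraries, and all miRNAs of a library share its depth and scaling. miR-142a-5p, a miRNA of all blood lineages, held 8087.2, 9783.0 and 6757.2 CPM in WT and 8250.4, 8947.9 and 7629.2 CPM in KO, with the same WT libraries highest and lowest as for miR-16-5p. For miR-322-5p they were let-7a-1-3p (0.971), miR-27a-3p (0.967), miR-27b-3p (0.967), miR-30e-5p (0.946) and miR-21a-5p (0.946), where the miR-27 pair had counts within 0.392% of each other.

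Within the family, miR-15b-5p followed miR-16-5p (r = 0.953 over the 6 libraries, as a description), while miR-15a-5p did so less (r = 0.626) and lay closest to miR-497a-5p (r = 0.968). miR-16-1-3p and miR-16-2-3p followed each other (r = 0.892) and followed miR-16-5p less closely (r = 0.409 and 0.563). For miR-15b-3p and its own guide miR-15b-5p r was 0.203.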

How the data were processed

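Small RNA libraries of fetal liver (3 WT, 3 KO) were counted by the authors. The deposited table holds raw read counts per mature miRNA, per the file headers, and, for each library, the authors' percent of total counts (recomputed from the counts to within 5.0e-09). Adapters were trimmed with cutadapt, per the submitters' processing notes; the aligner, annotation, build and treatment of reads matching several miRNAs are not given in the sources used here. HITS-CLIP is named in the design text, but the labels of the samples give miRNA-Seq, and the values were treated as miRNA-Seq. Library totals were 16243894 to 27089133, and a count of 0 allows up to 0.111 to 0.185 CPM (3 counts). All pairs of libraries within a group differed beyond sampling noise (chi-square per degree of freedom 152 to 2335).

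Counts were fitted in R 4.3.3 with edgeR 4.0.16 (glmQLFit, glmQLFTest, TMM, filterByExpr) across the whole table; 876 miRNAs were tested. Standard errors, and the 95% intervals made from them, were derived from the fold and its F statistic, which is an approximation. Arm ratios were tested with limma 3.58.1 (trend) for 264 hairpins, as log2 of 5p over 3p counts with 1 added to each, where both arms averaged 10 or more counts. Shares and ratios of single values used exact two-sided permutation tests over 20 assignments of the libraries (scipy 1.17.1). DESeq2 1.42.0, limma-voom, other scalings and filters and leaving out each library were alternatives. Fits were tested on simulated data. Named were all members, the deleted locus, called or else the 3 most abundant miRNAs of each list, and the 5 most alike for miR-16-5p and miR-322-5p. The members and lists were chosen with earlier results of these data known.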

Additional observations from a re-analysis of the deposited data

How the results depend on the processing

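No member was called under any alternative run (139 fits of single members, lowest adjusted p 0.1501, Benjamini-Hochberg, over edgeR, DESeq2 and limma-voom fits); miR-497a-5p was not tested where a mean of at least 10 CPM was required. Directions close to 0 did change. With no scaling factor the median log2 fold outside the locus moved from -0.01 to 0.34, and the members moved with it: 0.32 for the summed guides, 0.14 for miR-15a-5p, 0.30 for miR-15b-5p, 0.33 for miR-16-5p, 0.0535 for miR-195a-5p, 0.17 for miR-497a-5p, 0.31 for miR-322-5p, 0.046 for miR-16-1-3p and 0.0255 for miR-16-2-3p. Relative to that median miR-16-5p stood at -0.01. Upper-quartile scaling gave 0.0723 for the summed guides, 0.0364 for miR-15b-5p, 0.075 for miR-16-5p and 0.0536 for miR-322-5p, with an overall median of 0.09. miR-15a-3p turned to -0.0251 with DESeq2, to -0.0304 with RLE scaling and to -0.0433 with the locus removed before scaling.

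Leaving out 1 library at a time gave log2 folds of -0.21 to 0.10 for the summed guides, -0.20 to 0.0507 for miR-16-5p, -0.30 to 0.0542 for miR-15b-5p and -0.34 to 0.0511 for miR-322-5p. It gave -0.13 to 0.13 for miR-15a-3p and -0.043 to 0.40 for miR-15b-3p. Ranges that kept their sign were -0.41 to -0.13 for miR-15a-5p, -0.40 to -0.27 for miR-195a-5p, -0.38 to -0.089 for miR-497a-5p, -0.63 to -0.22 for miR-16-1-3p and -0.49 to -0.23 for miR-16-2-3p. Arm differences ranged from -0.28 to 0.17 for miR-322, -0.41 to -0.097 for miR-15a, -0.51 to -0.024 for miR-15b, 0.20 to 0.44 for miR-16 and -0.55 to -0.048 for miR-195a. Pool shares (KO minus WT, percentage points) ranged from -0.58 to 0.16 for miR-15b-5p and from -0.21 to 0.083 for miR-322-5p, and the log2 ratio of miR-16-1-3p to miR-16-2-3p from -0.14 to 0.11. In the pool without miR-16-5p the differences were 2.24 for miR-15b-5p and 0.165 for miR-322-5p. Outside the deleted locus the guide share differed by -0.111 percentage points. Beyond the locus edgeR called 4 miRNAs, DESeq2 12, edgeR with no scaling factor 58, and edgeR 1 with RLE scaling, with upper-quartile scaling or with the locus removed, and 0 to 1 without single libraries; arm calls were 0 to 1, the 1 without WT library 3. The cause of these changes was not tested. No paired analysis was possible because the WT and KO libraries share no replicate number. Depth limits miR-497a-5p most, at 147 to 242 counts per library.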
